A study of Mus musculus with 7 samples.

Results

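The genes described here are 10 secreted or membrane-bound factors known from the bone marrow niche: Kitl, Flt3l, Cxcl12, Jag1, Il7, Il15, Csf1, Igf1, Tgfb1 and Spp1. They were chosen by name, as the rows of the deposited table whose gene name equals one of the 10, and all 10 were found among 50435 gene rows. The RNA came from mouse bone marrow cells sorted by flow cytometry as sinusoidal endothelial cells, which line the wide venous vessels there. The gate took cells with CD31 and without Sca1, CD45, Ter119, Gr1 or CD11b.

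Every mouse of both groups was a wild-type recipient that had been irradiated and then given Zbtb46dtr marrow. In that marrow the diphtheria toxin receptor follows Zbtb46, a gene used to mark classical dendritic cells, so that the toxin reaches transplanted blood cells that use Zbtb46 and not the wild-type vessels and stroma of the host. At 8 weeks, 4 samples came from mice injected with 100 ul of PBS (the PBS group) and 3 from mice injected with 200 ng of diphtheria toxin in the same volume (the DT group), and 1 day later the marrow was collected. The labels call the samples biological replicates. The sources used here do not state strain, age or whether animals were pooled.

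Marrow niche factors are made by stromal, endothelial and blood cells and are read by receptors on the blood-forming cells nearby. Kitl and Cxcl12 made by perivascular stroma and endothelium are known to maintain and hold haematopoietic stem cells, and Il7 from stroma supports B cell precursors. Others, such as Csf1, Il15, Tgfb1 and Spp1, are also known from macrophages, megakaryocytes or other blood cells, so their RNA in a mixed sample has several possible sources.

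Levels are given in RPM, reads per 1000000 reads of the library. Libraries held an estimated 33200000 to 51200000 reads, at which 3 reads equal 0.0585 to 0.0904 RPM. Of 14100 genes tested with limma at an adjusted p under 0.05, 13.4% were higher and 18.6% lower in DT, and the median log2 difference was -0.23. Median-ratio scaling moved that median to -0.02 and the share of calls that were rises from 41.9% to 64.2%. The 2622 genes lower became 1500, 1609 and 1208 without DT replicate 1, 2 and 3. Marker genes were checked against the labelled cell type. None of 15 endothelial genes was at 0 in all libraries, but 9 averaged under 1 RPM, and the list summed to 23.1 to 75.8 RPM in PBS and 34.2 to 48.8 RPM in DT. Most of that sum was Egfl7, at 27.9 ± 14.4 and 13.9 ± 3.33 RPM, and Erg, at 19.9 ± 10.2 and 12.1 ± 3.62 RPM, neither past the threshold. Flt1, a VEGF receptor named after its values were seen as the only call among 6 genes tested, was at 0.206 ± 0.284 and 2.08 ± 0.688 RPM (adjusted p = 0.00956) and passed the minimum mean only through DT. Ptprc, which encodes the gated-out antigen CD45, averaged 171 ± 53.4 RPM with PBS (SD, n = 4) and, with DT, 473 ± 64.0 RPM (SD, n = 3). Ly6a, which encodes the gated-out Sca1, rose from 3.21 ± 1.36 to 22.2 ± 8.23 RPM, and Pecam1, which encodes CD31, was at 82.3 ± 21.5 and 80.3 ± 7.91 RPM, so the values describe the sorted samples and are not assigned to endothelium. In such bulk samples fewer cells of a type and less RNA per cell cannot be told apart.

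**Figure D1:**
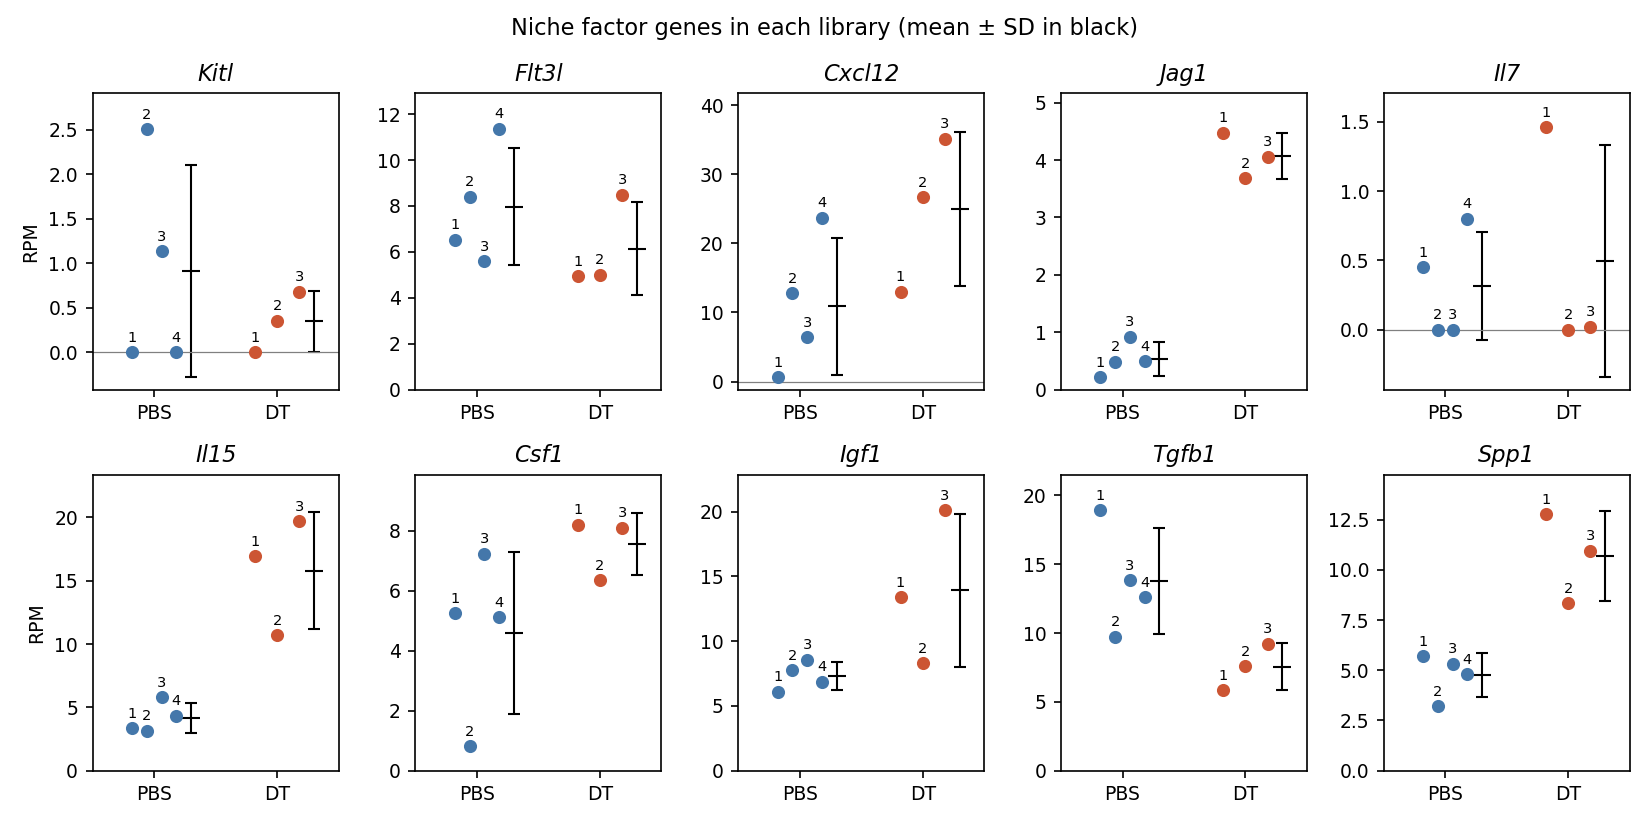
RPM of the 10 niche factor genes in each library, with PBS replicates 1 to 4 in blue and DT replicates 1 to 3 in orange, numbered, and the mean ± SD of each group in black. The groups separate for Jag1, Il15 and Spp1, which are higher in DT, and for Tgfb1, which is lower, and they overlap for the other genes.

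The DT and PBS groups were compared to ask how niche factor RNA in the sorted samples differed 1 day after the toxin. Jag1, Il15 and Spp1 rose, by 7.72-fold, 3.79-fold and 2.25-fold in the ratio of group means. Tgfb1 was lower in all 3 DT libraries than in any PBS library but missed the threshold. Cxcl12, Csf1, Igf1 and Flt3l did not pass and their groups overlapped, and Kitl and Il7 averaged under the minimum for testing. The 3 calls among 10 members, of which 8 passed the minimum mean of 1 RPM, were all rises and stand beside 32.0% of all tested genes called in either direction and 13.4% higher in DT. The groups did not overlap for 4 of the 8, against 40.9% of all tested genes, so that count is near the background. The median log2 difference of the 8 was 0.91 against -0.23 over all tested genes.

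Kitl, the ligand of the receptor tyrosine kinase Kit on stem and progenitor cells, was read in some libraries of each group and not in others. It was listed at 0 in PBS replicates 1 and 4 and in DT replicate 1, and at 2.505 and 1.13 RPM in PBS replicates 2 and 3. In DT replicates 2 and 3 it was at 0.357 and 0.683 RPM. Both groups therefore held libraries with no Kitl and libraries with an estimated 15 to 98 reads. Without a filter on low values the log2 difference was -0.33 ± 0.49 (SE; limma, adjusted p = 0.703). Col1a1, a collagen gene of bone-forming and stromal cells, was at 22.7 RPM in PBS replicate 2, the library with the most Kitl, and at 0.554 to 2.18 RPM in the other 6. The 13 stromal markers summed to 59.9 RPM in that library, 15.4 to 33.2 RPM in the other PBS libraries and 16.9 to 21.3 RPM in DT. Outside PBS replicate 2 most of each sum was Alpl, 1 of the 13, at 8.68 to 30.5 RPM. PBS replicate 3, with the second most Kitl, had the lowest stromal sum, 15.4 RPM, and the lowest Col1a1, 0.554 RPM. The part of stromal cells in the Kitl values was not tested.

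Flt3l, the growth factor for dendritic cell and lymphoid progenitors that signals through Flt3, was measured in every library. It was at 6.52, 8.41, 5.595 and 11.4 RPM with PBS, against 4.95, 5.001 and 8.48 RPM with DT. The groups overlapped, with 2 of the 3 DT libraries below all PBS libraries. The log2 difference was -0.32 ± 0.31 (SE; limma, adjusted p = 0.460), close to the median of all tested genes. A predicted gene on the same strand, Gm45713, overlaps Flt3l in the annotation and averaged 0.185 RPM.

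Cxcl12, the chemokine that holds stem cells, B cell precursors and neutrophils in the marrow through Cxcr4, varied most among the tested members in PBS. It was at 0.602, 12.8, 6.38 and 23.7 RPM with PBS, against 13.0, 26.7 and 35.1 RPM with DT. DT replicate 1 lay inside the PBS range, and PBS replicate 4 came close to DT replicate 2. The SD was 91.1% of the mean in PBS, and 95.1% of tested genes had a smaller relative spread there. The DT mean was 2.29-fold higher, with a log2 difference of 1.597 ± 0.784 that missed the threshold (limma, adjusted p = 0.144). PBS replicate 1 set much of that value, since without it the log2 difference was 0.83 (adjusted p = 0.179). That library also had the lowest erythroid marker sum of the PBS group, 846 RPM against 6591 to 10677 RPM. Its stromal sum of 33.2 RPM was the second highest, but 30.5 RPM of it was Alpl, and Col1a1 was at 0.663 RPM. Whether that composition bears on Cxcl12 was not tested.

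Jag1, a membrane-bound ligand of Notch receptors, was low in PBS and higher in DT. It was at 0.211, 0.486, 0.923 and 0.492 RPM in PBS, an estimated 7 to 35 reads. In DT it was at 4.48, 3.69 and 4.06 RPM, or 155 to 208 reads. The groups lay far apart, and the DT libraries differed little from each other, with an SD of 9.73% of their mean. The log2 difference was 1.75 ± 0.28 (SE; limma, adjusted p = 0.00162). Jag1 passed the minimum mean only through its DT values, and without a filter it kept its call (adjusted p = 0.00909). Jag1 is on the minus strand of chromosome 2, at 137081456 to 137116644 in mm10 (GENCODE vM21), is protein-coding and has 5827 bases of annotated exon.

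Il15, which sustains natural killer cells and memory T cells and is presented by Il15ra on the producing cell, rose in all 3 DT libraries. It was at 3.34, 3.14, 5.80 and 4.35 RPM with PBS, against 16.9, 10.7 and 19.7 RPM with DT. The lowest DT library was above the highest PBS library. The log2 difference was 1.69 ± 0.30 (SE; limma, adjusted p = 0.00286), and the call held in all 16 alternatives run. Il15 lies on chromosome 8 at 82331632 to 82403222 (minus strand, mm10).

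Il7, the cytokine that B and T cell precursors need, was detected in few libraries. It was at 0.452 and 0.802 RPM in PBS replicates 1 and 4, listed at 0 in PBS replicates 2 and 3, and at 1.46, 0 and 0.0195 RPM in DT. DT replicate 1, with an estimated 59 reads, was thus the highest of all 7, and DT replicate 3 held 1 read. Without a filter the log2 difference was 0.10 ± 0.38 (SE; limma, adjusted p = 0.893).

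Csf1, the growth factor of monocytes and macrophages, was at 5.24, 0.818, 7.22 and 5.12 RPM with PBS, against 8.19, 6.35 and 8.10 RPM with DT. PBS replicate 3 lay above DT replicate 2, so the groups overlapped. The log2 difference was 0.80 ± 0.48 and did not pass (limma, adjusted p = 0.227). It rested in part on PBS replicate 2, without which it was 0.32 (adjusted p = 0.394).

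Igf1, a growth factor made by many stromal cells and macrophages, was even across PBS and uneven across DT. It was at 6.09, 7.77, 8.57 and 6.88 RPM in PBS, with an SD of 14.7% of the mean. In DT it was at 13.4, 8.28 and 20.1 RPM, with an SD of 42.5% of the mean. DT replicate 2 lay within the PBS range and the other DT libraries above it. The log2 difference of 0.77 ± 0.31 missed the threshold (limma, adjusted p = 0.0809) and passed without DT replicate 2 (log2 1.07, adjusted p = 0.0365) and under median-ratio scaling (adjusted p = 0.0399).

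Tgfb1, secreted in a latent form and known to hold stem cells in quiescence once activated, was the member with its groups apart in the downward direction. It was at 18.9, 9.73, 13.8 and 12.6 RPM with PBS, against 5.84, 7.61 and 9.22 RPM with DT. The highest DT library was just below the lowest PBS library. The log2 difference was -0.77 ± 0.28 (SE; limma, adjusted p = 0.0596), which passed without PBS replicate 2 (log2 -0.91, adjusted p = 0.0338) and with array weights (adjusted p = 0.0345). Under median-ratio scaling it was -0.56 (adjusted p = 0.188).

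Spp1, or osteopontin, a secreted matrix protein known to limit stem cell numbers and made by bone cells and macrophages, rose in DT. It was at 5.69, 3.19, 5.32 and 4.81 RPM with PBS, against 12.8, 8.32 and 10.96 RPM with DT. All 3 DT libraries were above all 4 PBS libraries. The log2 difference was 1.03 ± 0.28 (SE; limma, adjusted p = 0.0210). The call was lost without DT replicate 1 (adjusted p = 0.0916) or DT replicate 3 (adjusted p = 0.0797), while the difference stayed at 0.90 and 1.00. Spp1 lies on chromosome 5 at 104435118 to 104441050 (plus strand, mm10).

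**Figure D2:**
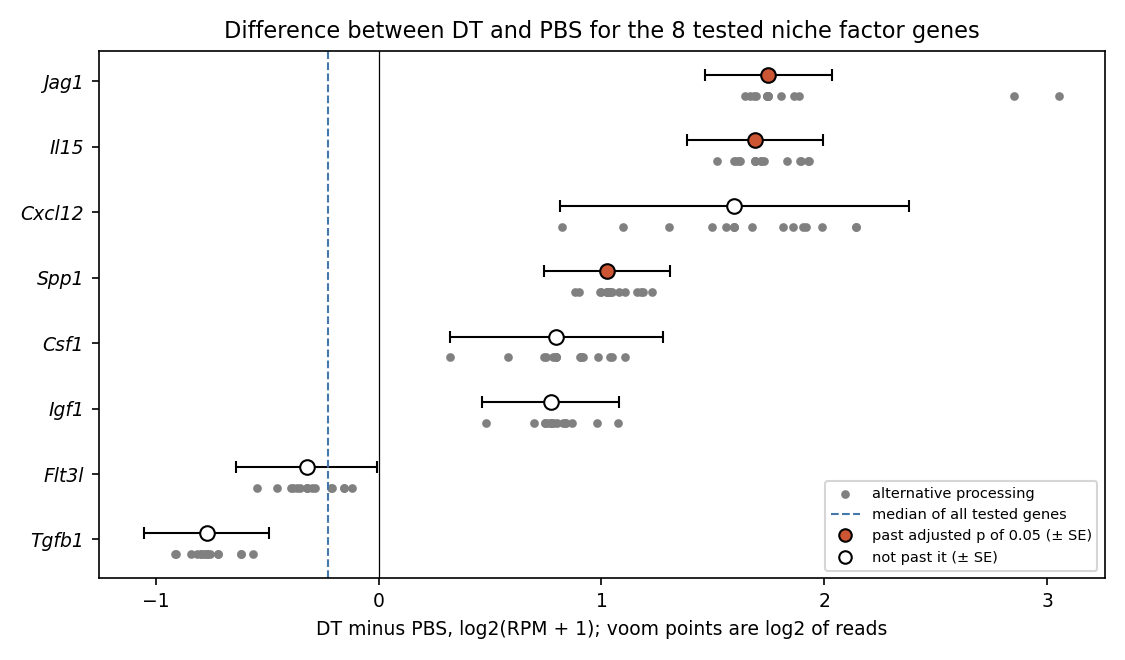
Difference between DT and PBS on the log2(RPM + 1) scale for the 8 tested niche factor genes, with SE bars, filled where the adjusted p was under 0.05, and grey points for each alternative processing. Jag1 and Il15 lie at 1.75 and 1.69 with points clear of 0, Cxcl12 has the widest error at 1.597 ± 0.784, and the dashed line marks the median of all tested genes at -0.23.

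The sequence just upstream of the genes whose groups did not overlap is shown for the 3 that have a promoter entry in RefSeq (GRCm38.p6, the mm10 assembly). Of the 10 members 8 matched an entry, and Il15 and Il7 did not. Capitals mark exact matches, on either strand, to any of 5 motifs. They were a kB-like and an interferon response-like motif of 10 bases each, the TATA box (TATAAA), an AP-1-like motif (TGANTCA) and an Rbpj-like motif (TGGGAA). Each is read 5′ to 3′ on the gene's strand, Jag1 from chr2:137116645-137116770 (minus strand), Spp1 from chr5:104434861-104435110 (plus strand) and Tgfb1 from chr7:25686752-25687001 (plus strand).
Jag1: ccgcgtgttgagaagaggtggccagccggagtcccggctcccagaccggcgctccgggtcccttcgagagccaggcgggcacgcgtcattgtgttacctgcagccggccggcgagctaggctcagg
Spp1: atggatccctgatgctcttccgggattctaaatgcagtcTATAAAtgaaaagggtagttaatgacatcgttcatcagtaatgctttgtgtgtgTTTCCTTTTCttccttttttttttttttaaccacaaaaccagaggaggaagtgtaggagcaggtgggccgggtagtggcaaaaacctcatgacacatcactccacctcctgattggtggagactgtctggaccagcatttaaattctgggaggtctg
Tgfb1: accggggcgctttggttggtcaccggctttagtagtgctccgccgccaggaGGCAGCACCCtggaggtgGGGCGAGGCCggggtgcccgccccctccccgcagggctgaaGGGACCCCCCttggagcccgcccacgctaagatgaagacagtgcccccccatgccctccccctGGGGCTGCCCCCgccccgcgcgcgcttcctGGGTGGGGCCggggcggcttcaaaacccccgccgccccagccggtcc
The 126 bases shown for Jag1, which stop before the annotated first exon, held no match, and 1 kB-like match lay further on in its window. The 250 bases of Spp1 held 1 TATA box match, 211 bases upstream of the RefSeq start, and 1 interferon response-like match, 157 bases upstream. The Tgfb1 stretch held 7 kB-like matches, of which 3 overlap each other. Among all 32851 promoter windows of 300 bases, 50.8% held the kB-like letters, 3.44% the interferon response-like, 13.6% the TATA box, 25.6% the Rbpj-like and 7.81% the AP-1-like letters. Of the 9 windows of the members, 7 held the kB-like and 2 the interferon response-like letters, the latter in Spp1 and Flt3l. These are matches of letters and do not show binding.

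Levels were compared between members only after division by exon length. In PBS, Spp1 and Tgfb1 were highest, at 2.89 ± 0.67 and 2.73 ± 0.76 RPM per kb (SD, n = 4), followed by Flt3l at 2.06 ± 0.66, Il15 at 1.84 ± 0.54, Cxcl12 at 1.33 ± 1.21, Csf1 at 0.871 ± 0.51 and Igf1 at 0.740 ± 0.11. Each of these neighbours overlapped the next in range. Kitl at 0.154 ± 0.20, Jag1 at 0.0905 ± 0.050 and Il7 at 0.0553 ± 0.069 RPM per kb lay below Igf1 without overlap and overlapped each other. In DT, Il15 at 6.98 ± 2.04 and Spp1 at 6.48 ± 1.36 RPM per kb (SD, n = 3) overlapped each other and lay above Cxcl12 at 3.05 ± 1.37. Cxcl12, Flt3l, Tgfb1, Csf1 and Igf1 then overlapped from one to the next, between 3.05 and 1.41 RPM per kb. Jag1, at 0.699 ± 0.068, was below these and above Il7 and Kitl, without overlap on either side. Since most neighbours overlapped, the order within either group is not firm.

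Genes like the risen members were sought as a description, in which the difference between groups weighs heavily. Predicted genes, RIKEN clones, pseudogenes, microRNAs, snoRNAs, immunoglobulin and T cell receptor segments and genes without an annotated type were left out. Among the other tested genes, those whose log2 values followed a risen member most closely over the 7 libraries were named. For Jag1 they were Lrp8, a lipoprotein receptor, Prom1, which encodes CD133, and Sirpb1b, with Pearson r of 0.998, 0.996 and 0.996. Prom1 went from 2.08 ± 1.59 to 44.4 ± 3.67 RPM. For Il15 they were Il10rb, a chain of the interleukin-10 receptor, Dusp3, a phosphatase, and Itih5, with r of 0.993, 0.992 and 0.990. For Spp1 they were Braf, a kinase of the MAPK cascade, Ugt1a6a and Cebpa, a transcription factor of myeloid cells, with r of 0.987, 0.985 and 0.985. Cebpa went from 1.15 ± 0.74 to 6.75 ± 1.19 RPM.

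Receptor genes listed with the same factors moved in both directions. Of 25 listed, 21 were tested, 6 rose, 3 fell and 12 did not pass, beside 13.4% of all tested genes higher and 18.6% lower. The median log2 difference of the 21 was -0.13. The count of falls was 5 without PBS replicate 1 or PBS replicate 2. Of the 4 Notch receptors 2 rose and 2 were not tested. Notch2 went from 85.3 ± 18.1 to 153 ± 16.8 RPM (limma, adjusted p = 0.00779) and Notch1 from 23.8 ± 4.69 to 40.0 ± 7.33 RPM (adjusted p = 0.0238), while Notch3 was at 0.373 ± 0.567 and 0.196 ± 0.179 RPM and Notch4 at 0.644 ± 0.577 and 0.232 ± 0.210 RPM. Notch1, Notch3, Notch4, Flt3, Tgfbr3, Kit and Il15ra were named after their values were seen. Csf1r, the receptor for Csf1 on monocytes and macrophages, rose 6.90-fold, from 12.5 ± 1.61 to 86.2 ± 11.3 RPM, while Csf1 did not pass. Il2rb, the signalling chain shared by the Il15 and Il2 receptors, rose 12.7-fold from 1.23 ± 1.36 RPM, whereas Il15ra was at 9.73 ± 2.82 and 14.5 ± 2.78 RPM and did not pass (adjusted p = 0.150).

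Flt3, the receptor of Flt3l, rose from 1.37 ± 1.95 to 7.61 ± 2.76 RPM (limma, adjusted p = 0.0127), with PBS replicate 1 at 4.28 RPM near DT replicate 1 at 5.22 RPM. Kit, the receptor of Kitl, was at 14.4 RPM in PBS replicate 1, 72.9 to 86.1 RPM in the other PBS libraries and 27.0 to 49.5 RPM in DT. Its groups overlapped through PBS replicate 1 alone, and it did not pass (adjusted p = 0.576). Il7r, the receptor of Il7 on lymphoid precursors, fell from 238 ± 87.6 to 93.5 ± 17.3 RPM (adjusted p = 0.00512). Of 10 B-lineage markers 8 fell with it and 0 rose, and their part in the Il7r values was not tested. Tgfbr3, a co-receptor of TGF-beta, fell 5.22-fold from 8.87 ± 3.99 RPM (adjusted p = 0.00818). Cd44, a receptor for Spp1 and hyaluronan, rose 2.04-fold from 141 ± 18.9 RPM, and Itga4, an integrin subunit that can bind Spp1, fell from 122 ± 24.1 to 66.4 ± 7.74 RPM. Cxcr4, the receptor for Cxcl12, was at 69.5 ± 19.1 and 57.7 ± 6.89 RPM and did not pass (adjusted p = 0.414).

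**Figure D3:**
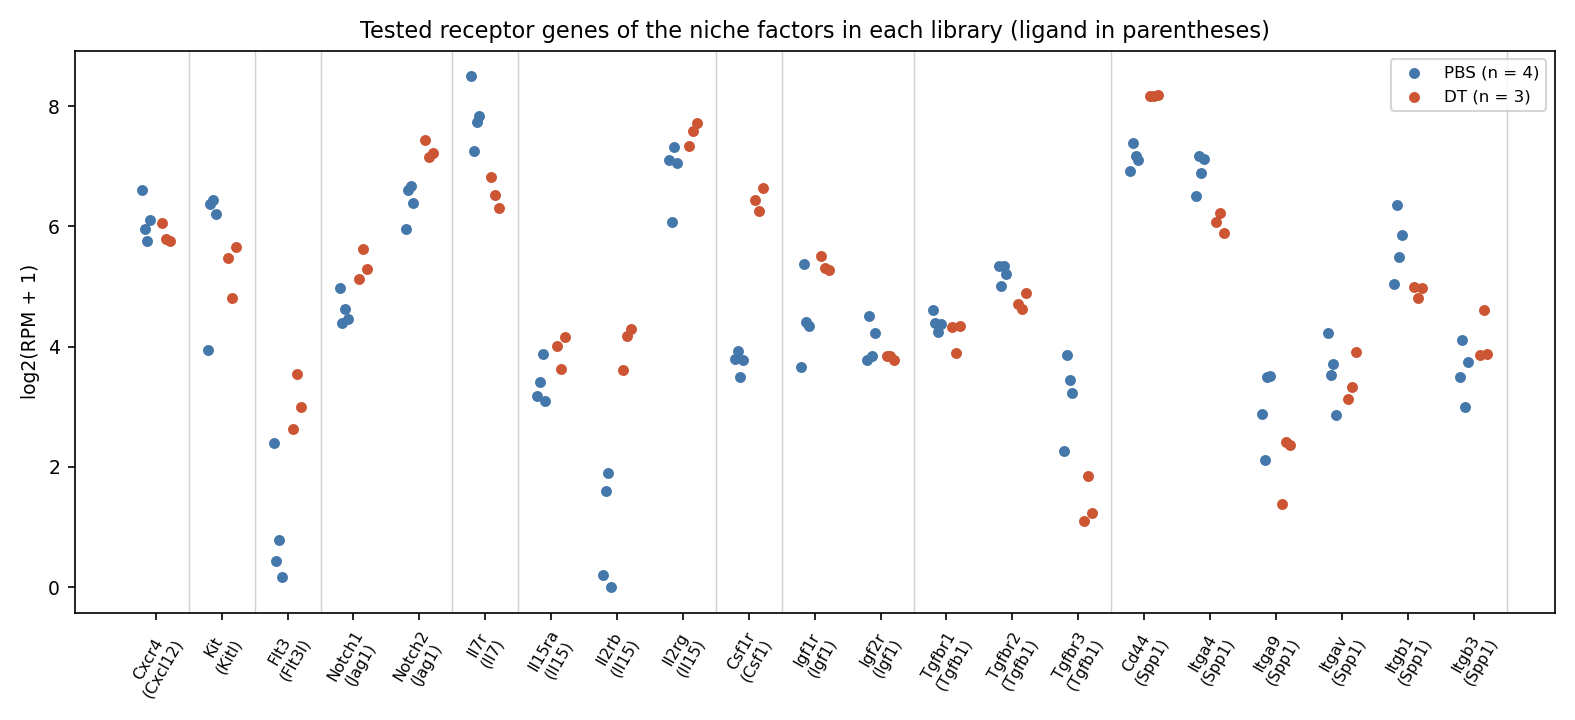
log2(RPM + 1) of the 21 tested receptor genes in each library, with PBS in blue and DT in orange. The name in parentheses is the member a gene was listed with, which for Igf2r, listed with Igf1, need not be its main ligand. Csf1r and Il2rb are higher in every DT library, Il7r and Tgfbr3 are lower in every DT library, and Kit has 1 PBS library below all others.

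Ligands related to the members were mostly near 0. Of 27 such genes, including the other Delta and Jagged ligands, Tgfb2, Tgfb3, Igf2, Il34, Csf2, Csf3 and Thpo, 24 averaged under 1 RPM and were not tested. Of the 3 tested, Osm, a cytokine of the interleukin-6 family made by myeloid cells, rose 9.82-fold, with 7.21 ± 2.93 RPM in the PBS group and 70.8 ± 25.3 RPM in the DT group (limma, adjusted p = 0.000147). Angpt1, a ligand of the endothelial receptor Tek, was at 7.40 ± 3.74 and 10.3 ± 0.94 RPM, and Vegfa at 3.22 ± 0.90 and 2.90 ± 0.62 RPM, and neither passed.

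Genes that cleave, release or bind these factors included large changes. Of 28 listed, 19 were tested, 7 rose, 4 fell and 8 did not pass, beside 13.4% of all tested genes higher and 18.6% lower. The median log2 difference of the 19 was 0.06, and 4 rose without DT replicate 3. Elane, Ctsg and Prtn3, serine proteases of neutrophil granules that can cleave Cxcl12 or Kit, rose 8.09-fold, 8.34-fold and 7.68-fold. Mmp9, a metalloproteinase known to release membrane-bound Kitl, rose 30.02-fold from 21.6 ± 2.00 RPM. Adam10, a sheddase of Notch receptors and ligands, fell from 258 ± 10.99 to 134 ± 13.5 RPM (limma, adjusted p = 0.000510), and Adam17 did not pass, at 45.3 ± 7.46 and 45.1 ± 3.12 RPM, with a log2 difference of 0.0040 ± 0.17. Ltbp4, which stores latent TGF-beta in the matrix, was at 1.64 to 3.23 RPM in PBS and 0.0495 to 0.0713 RPM in DT, at the level of 3 reads or fewer. It passed the minimum mean only through PBS (adjusted p = 0.00205, and 0.00627 without a filter). Mib1, a ubiquitin ligase that activates Notch ligands, did not pass.

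Downstream genes of the same pathways did not share a direction. Of 10 Notch targets and nuclear factors, 6 were tested, 3 fell, 1 rose and 2 did not pass. Over all tested genes 18.6% were lower and 13.4% higher. The median log2 difference of the 6 was -0.35. Hes1, a repressor induced by Notch, fell 3.05-fold from 14.5 ± 2.28 to 4.75 ± 0.49 RPM (limma, adjusted p = 0.00205). Heyl and Maml1 fell by 1.125 and 0.82 on the log2 scale, near the threshold, and the count of falls was 1 without PBS replicate 3, PBS replicate 4, DT replicate 1 or DT replicate 2. Dtx4, a ubiquitin ligase of the Notch pathway, rose from 0.814 ± 0.51 to 9.40 ± 2.35 RPM, and passed the minimum mean only through DT. Rbpj, the DNA-binding partner of Notch, was at 39.1 ± 2.79 and 49.6 ± 5.47 RPM and did not pass.

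Of 12 Smad factors and TGF-beta targets, 9 were tested, 1 rose, 1 fell and 7 did not pass, with a median of -0.06. Beside these counts and the Jak and Stat5 counts below stand 13.4% of all tested genes higher and 18.6% lower. Tgfbi, a matrix protein induced by TGF-beta and also abundant in monocytes, rose 26.9-fold, with 8.08 ± 2.55 RPM in the PBS group and 217 ± 16.9 RPM in the DT group (limma, adjusted p = 1.77e-06). Tgif1, a repressor of Smad activity, fell by 0.68 on the log2 scale. The list had 0 falls when PBS replicate 4 or DT replicate 2 was left out and 2 falls when PBS replicate 1 or 2 was. Of 10 Jak and Stat5 genes, 9 were tested, 2 rose, 1 fell and 6 did not pass, with a median of 0.28, and 2 fell without PBS replicate 1. Socs3, a feedback inhibitor of cytokine receptors, rose 17.1-fold from 0.772 ± 1.21 RPM, passing the minimum mean only through DT, and Bcl2, a survival gene induced by Il7 and Il15, rose 2.90-fold from 8.55 ± 4.00 RPM. Socs2, a Stat5 target, fell from 37.4 ± 8.31 to 15.02 ± 2.02 RPM (adjusted p = 0.00239).

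**Figure D4:**
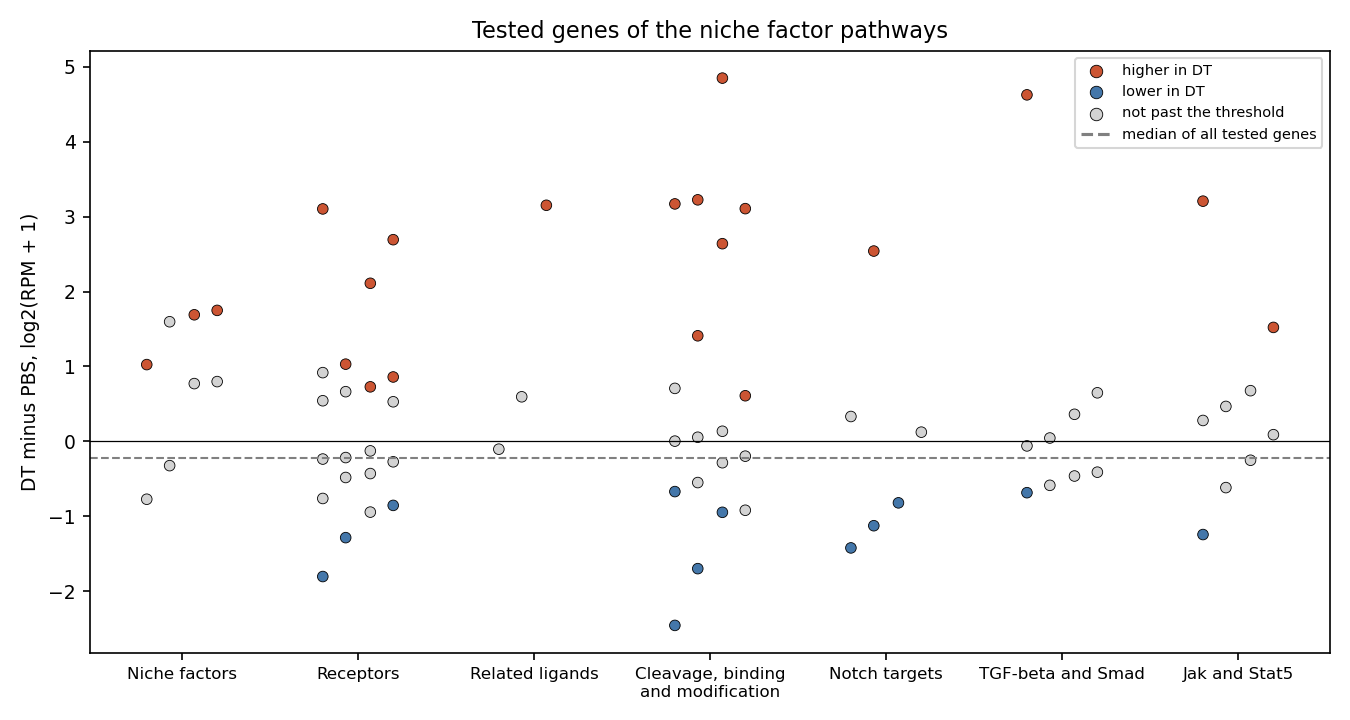
Difference between DT and PBS on the log2(RPM + 1) scale for the tested niche factor genes and 6 lists of related genes, 1 point a gene, orange where higher, blue where lower and grey where not past the threshold. The points fall on both sides of 0 in each list, the highest being Mmp9 at 4.85 and Tgfbi at 4.62.

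Markers of several blood cell types, but not of all, also differed between the groups. Csf1r, Il2rb, Flt3 and Mmp9 are in these marker lists and were also counted in the lists above. The sum of 10 monocyte and macrophage markers was 374 to 745 RPM in PBS and 6637 to 8307 RPM in DT, and all 10 rose. The sum of 10 neutrophil markers was 1525 to 2875 RPM in PBS and 49964 to 54059 RPM in DT, and all 10 rose. T and natural killer markers summed to 24.0 to 55.2 and 348 to 362 RPM, and all 10 rose. Most of each sum was Nkg7, at 15.6 to 48.4 RPM in PBS and 257 to 294 RPM in DT. B-lineage markers summed to 7221 to 11300 RPM in PBS and 5255 to 6384 RPM in DT. Megakaryocyte markers summed to 55.5 to 230 RPM in PBS and 51.2 to 157 RPM in DT. Of these 8 genes 7 were tested, and 0 rose and 0 fell. Dendritic cell markers summed to 34.2 to 58.5 RPM in PBS and 55.0 to 71.0 RPM in DT, so the groups overlapped. Of the 8 dendritic cell markers 5 were tested and 3 rose. Zbtb46, whose locus carries the toxin receptor, was at 9.21 ± 6.62 and 1.57 ± 1.55 RPM and did not pass (limma, adjusted p = 0.0556). Erythroid markers, with 8 of 10 lower and 2 higher in DT, summed to 846 to 10677 and 1128 to 1507 RPM. The lowest sum was that of PBS replicate 1, but the sums rest on different genes. Most of each DT sum was Hbb-bs, 1 of the 2 higher, at 825 to 1109 RPM, against 133 to 543 RPM in PBS. Most of each PBS sum was Car1 and Car2, both lower in DT. They were at 230 and 418 RPM in PBS replicate 1 and at most 103 and 230 RPM in DT. Osteoclast markers, given because Spp1 is known from osteoclasts, summed to 22.5 to 42.2 and 39.5 to 50.6 RPM, most of it Acp5, with Ctsk adding 12.3 RPM in DT replicate 1. The part of these cells in the values of Jag1, Il15 and Spp1 was not tested.

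**Figure D5:**
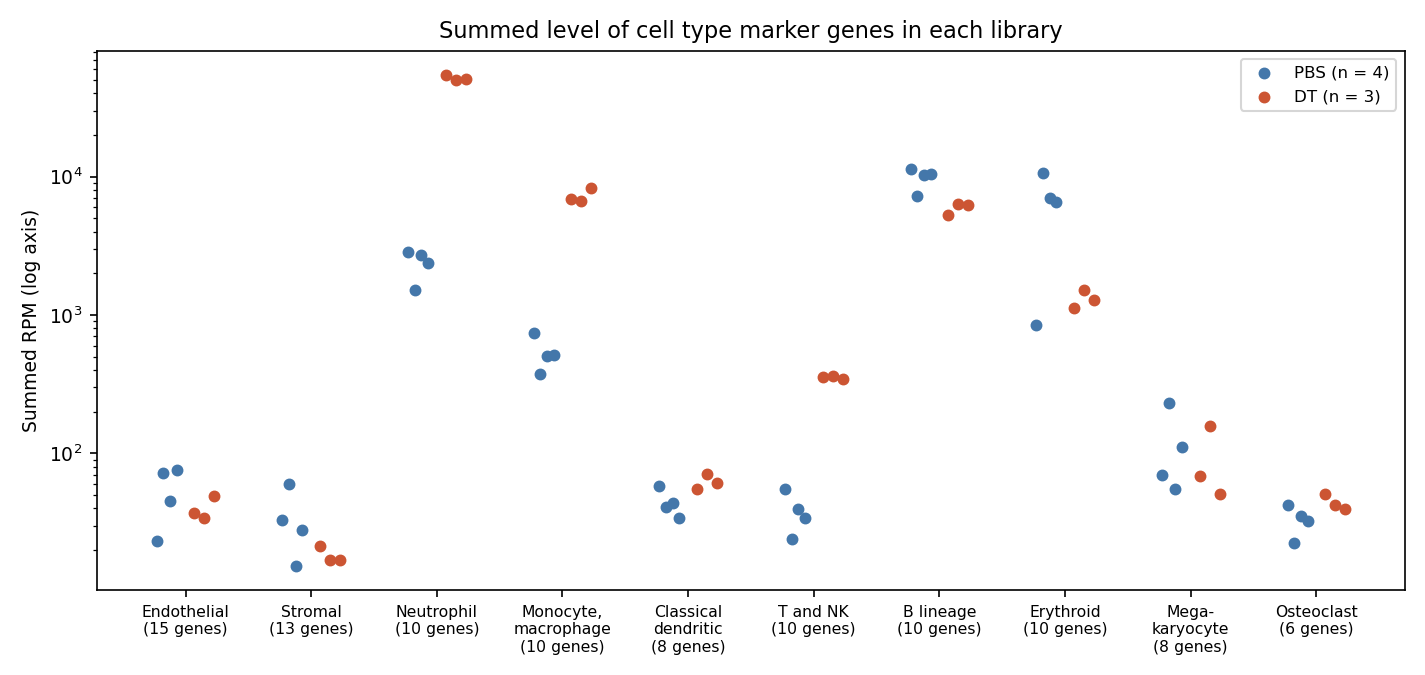
Summed RPM of fixed cell type markers in each library on a log axis, with PBS in blue and DT in orange and the number of genes in parentheses. Neutrophil, monocyte and macrophage, and T and natural killer sums are higher in every DT library, while endothelial sums overlap at 23.1 to 75.8 RPM in PBS and 34.2 to 48.8 RPM in DT.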

How the data were processed

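The input was 1 ng of RNA a sample, amplified over 14 cycles by a SMARTer kit and sequenced to 50 bases on 1 end, per the labels' protocols. Amplified reads are not independent molecules, so read floors show counting error alone. Per the submitters' processing notes, STAR 2.5.3a, Partek and mm10 were used. No source used here gives the annotation or strand setting. The authors deposited 1 table whose name states FPKM but whose values are RPM with an offset of 0.0001. The most frequent low value, taken as 1 read, was the same in all 4 classes of exon length in every library, which values divided by length would not be. Reads were estimated from that step. Between 60.5% and 62.5% of a library's values of at most 20 steps lay within 0.02 of a whole step, so whole reads were not recovered.

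The offset was subtracted. Those genes whose mean reached 1 RPM were tested on log2(RPM + 1), which understates changes of low genes, with limma 3.58.1 (intensity trend, two-sided) in R 4.3.3, all 7 samples, Benjamini-Hochberg adjustment over all 14100 genes. Folds are ratios of mean RPM. On simulated DT against PBS data of 13605 genes, the fit recovered 17.3% of 98 genes with a 2-fold change and 63.3% of 98 with a 4-fold change, with 4.82% false calls. A far smaller share of genes changed there than the 32.0% called in the data, and noise was drawn independently for each gene. These rates therefore do not give the power of the real comparison. Exon lengths are from GENCODE vM21. The members, lists and the rule for named genes (all members, up to 6 called and the 2 most abundant uncalled genes a list, and the 2 most abundant markers) were chosen with earlier results of these data known. Alternatives covered the pseudocount, filter, scaling, trend, weights, replicate block and each left-out library. Voom on estimated reads was added after seeing the data.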

Additional observations from a re-analysis of the deposited data

Results flagged for a closer look

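Within the 4 PBS libraries, the gap of the most distant library to its neighbour was large against the whole range for 2 of 54 genes and marker sums examined, where chance gives about 1 in 20. Ctsg, a neutrophil granule protease, was at 46.7 RPM in PBS replicate 1 and 14.5 to 18.8 RPM in the others. Dtx1, a Notch target, was at 5.14 RPM in PBS replicate 3 and 1.47 to 1.90 RPM in the others. The gap was not that large for any of the 10 niche factors.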

How the results depend on the processing

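Jag1 kept its call in all 15 alternatives that tested it (log2 difference 1.64 to 3.05) and Il15 in all 16 (1.52 to 1.93). Spp1 kept it in 13 of 16 and Csf1 and Flt3l passed in none, and no member changed direction. Members past the threshold in the downward direction numbered 0, but 1 with array weights and 0 to 1 over the left-out libraries, the 1 being Tgfb1. Pathway genes that fell numbered 12, or 19 with array weights. Over all genes 2622 fell, against 1699 without a filter, 1321 under median-ratio scaling and 1208 to 3628 over the left-out libraries. Related ligands had 1 rise, or 3 without a filter. Receptor falls went from 3 to 6 with array weights and 5 with a minimum mean of 5 RPM. Notch target falls went from 3 to 1 without a filter, under either other scaling or with the block, and its rises from 1 to 2 under median-ratio scaling and to 0 with a minimum mean of 5 RPM, where Dtx4 was not tested. Smad list falls went from 1 to 3 with array weights and to 0 under median-ratio scaling or with the block. Jak and Stat5 falls went from 1 to 2 without a filter or with array weights. The cause of these moves was not tested. With the replicate number as a block, PBS replicate 4 has no partner and adds nothing to the difference. In that fit 1574 genes fell, Cxcl12 passed (limma, log2 2.14, adjusted p = 0.0127) and Spp1 did not (adjusted p = 0.0506). The labels do not say what same-numbered samples share beyond the number, so whether the block applies is not known. Deviations of same-numbered samples from their group means correlated at 0.0103 to 0.0485 over 3 pairs. Of 6 samples, 5 correlated best with their own number. Uncalled genes near 0 changed sign (log2): Vegfa was at 0.0711 under median-ratio scaling, 0.0306 with the block and -0.228 to 0.0306 over the left-out libraries, Adam17 at -0.0937 to 0.0931 over them, with -0.0140 without PBS replicate 2 and -0.0444 without DT replicate 1, Mib1 at 0.0300 under median-ratio scaling and -0.442 to 0.0204 over them, and Dtx1 at -0.0133 with the block and -0.0133 to 0.424 over them. List medians near 0 also changed sign: that of the receptors was 0.0834 under median-ratio scaling, 0.123 with array weights and 0.0875 and 0.0386 without PBS replicate 1 and DT replicate 1, that of the Smad list 0.0136 without a filter, 0.0146 with array weights and 0.134 under median-ratio scaling, and that of the cleaving, releasing and binding genes -0.0388 without DT replicate 2. Kitl and Il7, each at 0 in some libraries of both groups, were tested only without a filter and did not pass.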

Other observations

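Several low genes of the lists were seen in 1 library, with none or little in the rest of its group. These genes were picked after their values were seen. Bglap, which encodes osteocalcin of bone-forming cells, was at 6.65 RPM in PBS replicate 2 and at 0 to 0.779 RPM elsewhere, and Col1a2 was at 12.0 RPM there and 0 to 1.95 RPM elsewhere. Ctsk, a protease of osteoclasts, was at 12.3 RPM in DT replicate 1, the library with the most Il7, at 0.547 and 0.468 RPM in the other DT libraries and listed at 0 in PBS. Dll4, a Notch ligand of endothelium, was at 2.14 RPM in PBS replicate 3 and at most 0.0742 RPM elsewhere. Stab2, a scavenger receptor of sinusoidal endothelium, was at 4.45 RPM in DT replicate 3 and at most 0.767 RPM elsewhere.

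The other called genes of the cleaving, releasing and binding list, already counted above, were named after their values were seen. Of the 19 tested in that list, 8 did not pass. Mmp14, a membrane-bound metalloproteinase, fell from 13.2 ± 7.27 to 1.26 ± 0.41 RPM (limma, adjusted p = 0.00516), with PBS replicate 1 at 3.46 RPM nearest to DT. Thbs1, a matrix protein able to activate latent TGF-beta, rose from 11.2 ± 12.3 to 56.6 ± 24.9 RPM (adjusted p = 0.0100). Dpp4, the peptidase that inactivates Cxcl12, fell from 109 ± 25.5 to 67.0 ± 7.12 RPM (adjusted p = 0.0285). Nrros, which holds latent TGF-beta on myeloid cells, rose from 105 ± 14.5 to 160 ± 14.5 RPM (adjusted p = 0.0129). Igfbp4, which binds Igf1, rose from 12.5 ± 7.69 to 31.0 ± 9.22 RPM (adjusted p = 0.0381).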
